A study of Homo sapiens with 8 samples.

Results

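The genes described here are the transcriptional output arm of the Hippo pathway. They comprise the coactivators YAP1 and WWTR1 (TAZ), the DNA-binding factors TEAD1, TEAD2, TEAD3 and TEAD4, the cofactor VGLL1, and the target genes CYR61 (CCN1), CTGF (CCN2) and ANKRD1. The members were taken by gene symbol and are 10 of the 63816 entries of the expression table. No measured value entered that rule, but the list was drawn up with earlier results of these data known. Each symbol stood on 1 entry. All 10 reached 1 TPM (transcripts per 1000000 transcripts) in all 8 samples and were among the 15590 entries tested.

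RNA was sequenced from cells labelled Caco-2, an established line from a human colorectal carcinoma, to ask what Siglec-XII does to gene expression in cells that lack it. Siglec-XII, encoded by SIGLEC12, is a member of the Siglec family of receptors that in humans has lost the binding of sialic acid. The control group had 4 samples with the empty vector pcDNA3.1 and the Siglec-XII group had 4 samples with pcDNA3.1 carrying SIGLEC12, both groups being stable transfectants grown under the antibiotic G418. The series text speaks of clones and of fewer cultures than 4, and the study's methods describe technical replicate libraries, so p-values here measure only the spread between these samples, which may be technical. Siglec-XII itself and whatever else distinguishes the cells selected with each vector cannot be told apart.

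When the Hippo kinases MST and LATS are active, YAP and TAZ are phosphorylated and held in the cytoplasm or degraded. When the kinases are inactive, YAP and TAZ enter the nucleus, bind TEAD factors on DNA and drive genes of growth, survival and matrix contact, among them CYR61, CTGF and ANKRD1. In intestinal epithelium the pathway is known for its part in regeneration and in tumors. Because the pathway acts mainly on the phosphorylation and location of YAP and TAZ, their mRNA levels do not report their activity.

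TEAD factors bind a core written CATTCC, or GGAATG on the other strand. Promoters of 300 bases (250 before to 50 after the transcription start) from RefSeq on build GRCh38.p14 were searched for these 6 letters on both strands. The promoter table used held 9 promoters of 7 of the 10 genes. It held no promoter of TEAD1, TEAD4 or CYR61, so these genes were not searched. A match was present in 4 of the 9, which are shown because they carry these letters, and the target genes CTGF and ANKRD1 held more than 1. The printed stretch of CTGF spans chr6:131951373-131951622 on the minus strand and that of ANKRD1 chr10:90921088-90921337 on the minus strand. That of YAP1 spans chr11:102110197-102110446 on the plus strand and that of VGLL1 chrX:136531965-136532214 on the plus strand. These are the 250 bases before each start, 5′ to 3′, with the core in capitals.
CTGF: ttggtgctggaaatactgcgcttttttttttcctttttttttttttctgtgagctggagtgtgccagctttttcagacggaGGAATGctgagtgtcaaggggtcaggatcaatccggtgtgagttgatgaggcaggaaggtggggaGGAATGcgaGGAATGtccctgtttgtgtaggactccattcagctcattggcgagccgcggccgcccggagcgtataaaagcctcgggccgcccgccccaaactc
ANKRD1: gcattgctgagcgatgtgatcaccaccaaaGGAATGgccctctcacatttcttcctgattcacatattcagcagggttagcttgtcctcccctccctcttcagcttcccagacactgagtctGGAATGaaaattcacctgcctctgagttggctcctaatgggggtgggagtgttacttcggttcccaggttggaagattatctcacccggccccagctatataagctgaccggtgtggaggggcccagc
YAP1: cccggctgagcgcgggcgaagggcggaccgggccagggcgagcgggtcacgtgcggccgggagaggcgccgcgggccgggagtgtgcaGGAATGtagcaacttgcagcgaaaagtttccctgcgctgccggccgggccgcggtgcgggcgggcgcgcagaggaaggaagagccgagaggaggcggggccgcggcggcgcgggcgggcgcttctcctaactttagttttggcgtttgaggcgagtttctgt
VGLL1: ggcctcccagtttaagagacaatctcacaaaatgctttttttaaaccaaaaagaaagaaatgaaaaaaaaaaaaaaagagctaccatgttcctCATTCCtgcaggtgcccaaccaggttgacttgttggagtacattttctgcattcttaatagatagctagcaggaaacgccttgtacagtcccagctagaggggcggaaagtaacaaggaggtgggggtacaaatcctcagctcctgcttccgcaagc

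In CTGF the core began 169, 104 and 95 bases before the start, the last pair standing close together. ANKRD1 held it 220 and 128 bases before the start, YAP1 162 bases before and VGLL1 157 bases before. The promoters of WWTR1, TEAD2 and TEAD3 in that table held no match. Of all 35116 promoters of the same length, 4928 (14%) held a match and 482 (1.37%) held at least 2. A match describes the letters only, and neither binding nor any effect on these genes was measured.

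The transfected gene followed the labels. SIGLEC12 (ENSG00000254521) stood at 0.11 ± 0.05 log2(TPM + 1) in the controls and at 10.70 ± 0.06 in the Siglec-XII group (SD, n = 4 each), which is 10.59 apart (two-sided exact permutation test, p = 0.0286, the smallest that 70 labellings allow). Each deposited column summed to the same total, so the depth of each sample is unknown, and 15513 to 15934 entries per sample reached 1 TPM. Over all tested entries, limma with Benjamini-Hochberg adjustment called 101 at an adjusted p under 0.05 (53 higher and 48 lower with Siglec-XII), which is 0.648%.

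The markers of the labelled tissue were largely absent, and the identity of the cells was not settled by these data. Of 14 colon epithelium markers, 2 or 3 reached 1 TPM in any sample. The intestinal homeobox genes CDX1 (mean 147 TPM over 8 samples) and CDX2 (40.6 TPM) were present, whereas the cytoskeletal gene VIL1 stood at 0.641 TPM, HNF4A, a transcription factor of enterocytes, at 0.0888 TPM, and KRT20, FABP1 and SI were listed at 0. All 5 markers of simple epithelium were present, with EPCAM at 553 TPM and CDH1 at 306 TPM. Of 20 trophoblast markers, 12 to 15 per sample reached 1 TPM, led by XAGE2 (767 TPM), GATA3 (380 TPM) and HSD3B1 (345 TPM), while the hormone genes CGB3, CGB5 and LEP were at or near 0. In each sample 10 of the 20 reached 10 TPM, and ELF5 (0.390 TPM) and GCM1 (0.672 TPM) had means below 1 TPM. Of 9 fibroblast markers 5 reached 1 TPM in each sample, with COL1A1 at 50.7 TPM and THY1 listed at 0.

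The summed levels of several of these lists differed between the groups. The summed level of the trophoblast list was 2546 to 2583 TPM in the controls and 2473 to 2486 TPM in the Siglec-XII group, although its 15 tested genes were divided into 8 higher and 7 lower (median log2 fold change 0.0045). XAGE2, GATA3 and PAGE4 were on the lower side (-0.14, -0.15 and -0.19) and GATA2, KRT7 and DLX5 on the higher (0.19, 0.19 and 0.34), none past an adjusted p of 0.05 in limma. The colon list summed to 164 to 187 TPM and 191 to 216 TPM, and the simple epithelium list to 8257 to 9230 TPM and 9840 to 10217 TPM, in the same order. These sums rest on few genes. CDX1 and CDX2 made up most of the colon sum, and each overlapped between groups. KRT8 (4260 TPM) and KRT18 (3183 TPM) made up most of the other. Of the 5 simple epithelium genes 3 lay apart on the higher side, where 9.17% of all tested entries did, and 68.1% of those were higher by sign. Fibroblast markers overlapped between groups, at 70.8 to 87.3 TPM and 83.3 to 89.2 TPM. Their part in the levels described next was not tested, and in bulk RNA fewer cells of a type and less RNA per cell cannot be told apart.

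TPM is scaled by transcript length, so the genes can be set in order of level. Each entry names a transcript, and whether its TPM also covers the gene's other transcripts is not given. This order and later comparisons of level between genes are therefore of entries. YAP1 was the most abundant by far, at a mean of 482 TPM over the 8 samples, above 98.1% of tested entries and 2.72 times the next gene. A middle tier held VGLL1 (177 TPM), CYR61 (170 TPM), TEAD1 (155 TPM), TEAD4 (114 TPM) and ANKRD1 (110 TPM). Below it stood TEAD3 (62.9 TPM), TEAD2 (40.9 TPM) and WWTR1 (37.7 TPM), and CTGF was last at 1.54 TPM, above 8.60% of tested entries.

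Not every step of that order was larger than the spread over samples. VGLL1 and CYR61 overlapped in range, VGLL1 being the higher in 5 of 8 samples, as did CYR61 and TEAD1 (7 of 8), TEAD4 and ANKRD1 (5 of 8), and TEAD2 and WWTR1 (6 of 8). The ranges were apart between YAP1 and VGLL1, TEAD1 and TEAD4, ANKRD1 and TEAD3, TEAD3 and TEAD2, and WWTR1 and CTGF.

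**Figure D1:**
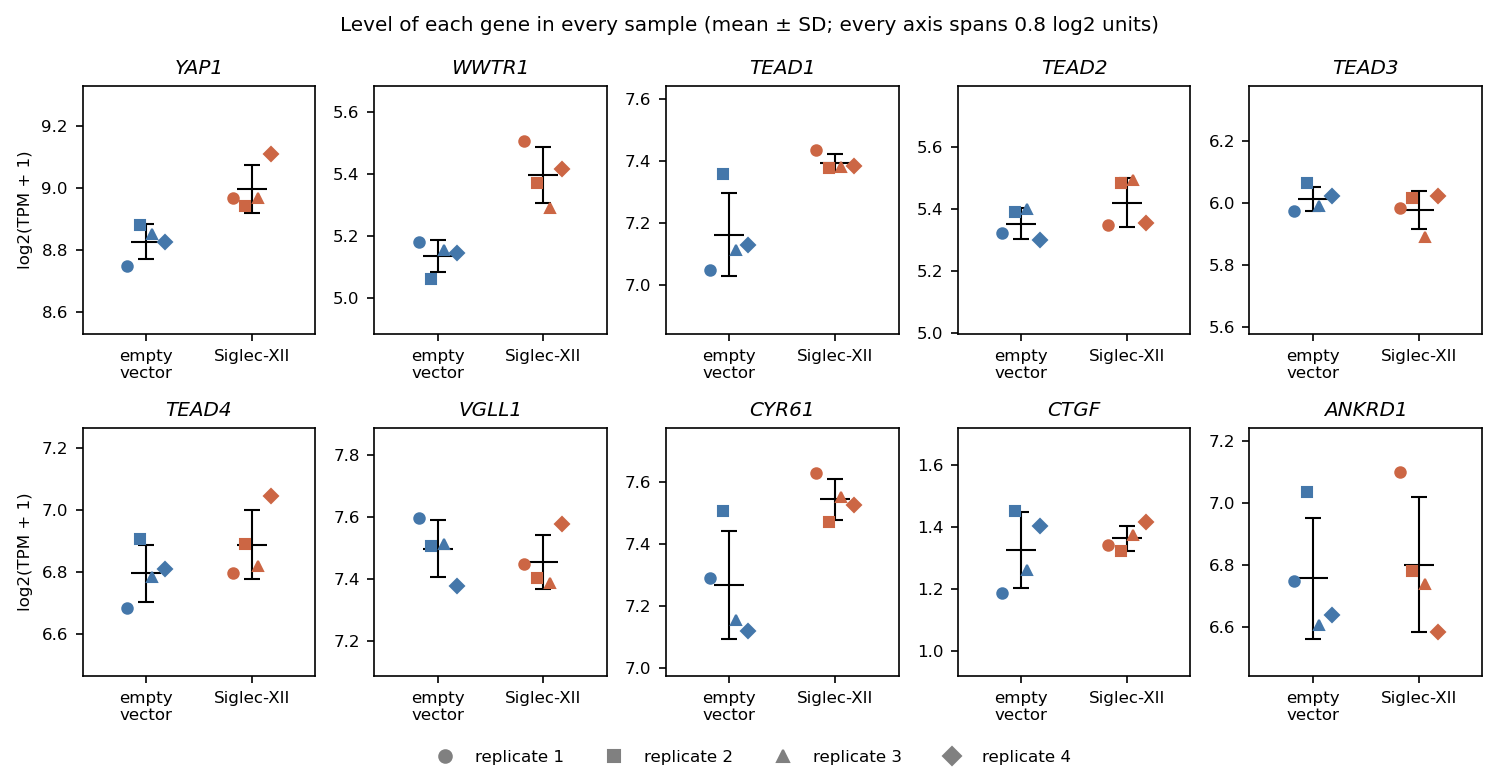
Level of each of the 10 genes in every sample, as log2(TPM + 1) on the y axis, by group on the x axis, with the replicate shown by the marker and the mean and SD of 4 samples in black. Every panel spans the same range of the log2 scale. The groups stand apart for YAP1, WWTR1 and TEAD1 and overlap for the other 7 genes.

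None of the 10 genes passed an adjusted p of 0.05 in limma. At an unadjusted p of 0.05 or less there were 4, YAP1, WWTR1, TEAD1 and CYR61, all higher with Siglec-XII, against 13.9% of all tested entries in that direction, and none lower, against 2.61%. In YAP1, WWTR1 and TEAD1 every Siglec-XII sample lay above every empty vector sample, where 9.17% of all tested entries did so, and in no gene did the groups lie apart the other way, where 1.68% did. The median log2 fold change of the 10 genes was 0.08, beside 0.07 over all tested entries, of which 68.1% were higher with Siglec-XII. By sign 8 of the 10 were higher, or 6 under quantile normalization and 7 with equal upper quartiles. The medians were 0.018 and 0.0095 under quantile normalization and 0.020 and 0.011 with equal upper quartiles, for the 10 genes and all tested entries in that order. TEAD1 and WWTR1 overlapped between groups under both scalings and with the trend of the table with transcript length removed, while YAP1 did not. TEAD3 lay apart on the lower side under quantile normalization and with the length trend removed.

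**Figure D2:**
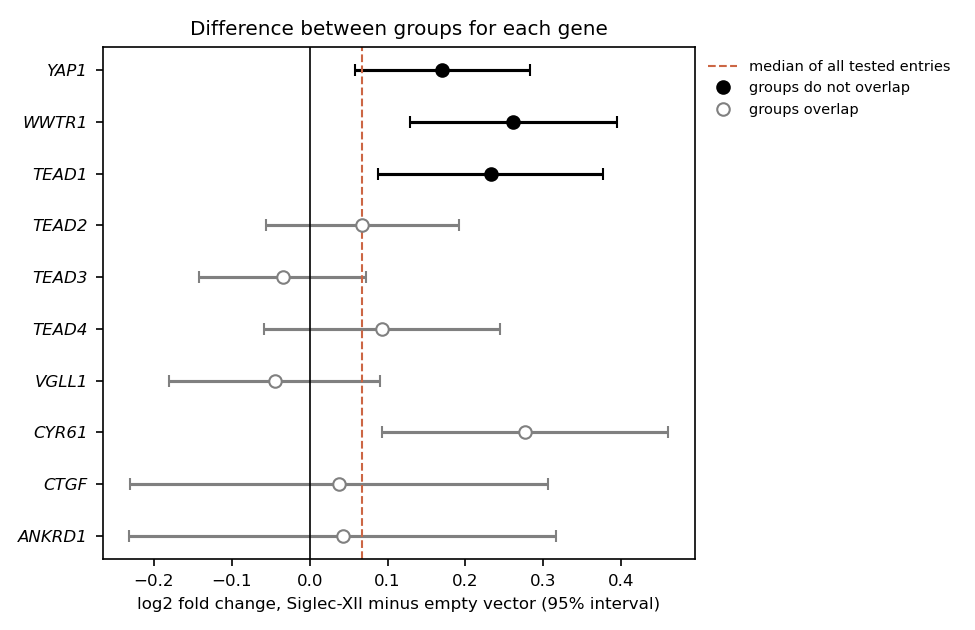
Log2 fold change of each gene, Siglec-XII minus empty vector, on the x axis, with its 95% interval from limma. Filled points are genes whose groups did not overlap, and the dashed line is the median of all tested entries. The intervals of YAP1, WWTR1, TEAD1 and CYR61 lie above 0 and the other 6 include it.

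YAP1 (ENSG00000137693, GRCh37 chromosome 11, 101981178 to 102104155, plus strand) encodes the main coactivator that carries the Hippo signal to the nucleus. Its level was 8.75, 8.88, 8.85 and 8.83 log2(TPM + 1) in empty vector replicates 1 to 4 and 8.97, 8.94, 8.97 and 9.11 in Siglec-XII replicates 1 to 4. The groups lay apart but close, with the highest control just under the lowest Siglec-XII sample. In linear terms the mean was 453 ± 17.9 TPM (SD, n = 4) against 510 ± 27.7 TPM (SD, n = 4), 12.6% more. The log2 fold change was 0.17 (SE 0.05, 95% interval 0.06 to 0.28), with an adjusted p of 0.154 in limma.

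WWTR1 (ENSG00000018408, GRCh37 chromosome 3, 149235022 to 149454501, minus strand) encodes TAZ, the paralog of YAP. Its level was 5.18, 5.06, 5.16 and 5.15 log2(TPM + 1) in the controls and 5.51, 5.37, 5.29 and 5.42 in the Siglec-XII samples, again with no overlap. The mean was 34.2 ± 1.26 TPM against 41.2 ± 2.65 TPM (SD, n = 4 each), 20.6% more. With a log2 fold change of 0.26 (SE 0.06, 95% interval 0.13 to 0.39) and an adjusted p of 0.0978 in limma, WWTR1 had the smallest p of the 10.

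YAP1 mRNA far outweighed WWTR1 mRNA in both groups. The ratio of their TPM was 13.3 ± 0.978 in the controls and 12.4 ± 0.924 in the Siglec-XII group (SD, n = 4 each), between 11.2 and 14.5 over the 8 samples. Together the coactivators summed to 487 ± 16.8 TPM and 552 ± 28.3 TPM, of which YAP1 held 93.0% and 92.5%. Over the 8 samples, the entries whose log2 level followed WWTR1 most closely were JARID2, ZNF527 and UBE4B, with Pearson's r of 0.956, 0.954 and 0.953, among 67 entries with r over 0.9. The 8 points include the difference between groups, and this likeness is a description only.

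TEAD1 (ENSG00000187079, GRCh37 chromosome 11, 12695968 to 12966284, plus strand) was the most abundant of the TEAD factors, which bind DNA but need a coactivator to activate transcription. Its level was 7.05, 7.36, 7.11 and 7.13 log2(TPM + 1) in the controls and 7.44, 7.38, 7.38 and 7.39 in the Siglec-XII samples. The Siglec-XII samples were tightly grouped and all higher, but empty vector replicate 2 came close to them while the other 3 controls stood well below. The mean was 143 ± 13.9 TPM against 167 ± 3.16 TPM (SD, n = 4 each), and the log2 fold change was 0.23 (SE 0.06, 95% interval 0.09 to 0.38) with an adjusted p of 0.138 in limma. The TEAD1 entry names a transcript of 9417 bases, and whether its TPM also covers other transcripts is not given. Removing the trend of the table with the length of the named transcript lowered the log2 fold change of TEAD1 to 0.12. It lowered those of YAP1 to 0.11 and WWTR1 to 0.17.

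The other 3 factors overlapped between groups. TEAD4 (ENSG00000197905, GRCh37 chromosome 12, 3068496 to 3149842, plus strand) stood at 6.68, 6.91, 6.78 and 6.81 log2(TPM + 1) in the controls and 6.80, 6.89, 6.82 and 7.05 in the Siglec-XII samples, a log2 fold change of 0.09 (95% interval -0.06 to 0.24, adjusted p 0.523 in limma). TEAD2 (ENSG00000074219, GRCh37 chromosome 19, 49843852 to 49865714, minus strand) stood at 5.32, 5.39, 5.40 and 5.30 and at 5.35, 5.48, 5.49 and 5.35, a log2 fold change of 0.07 (95% interval -0.06 to 0.19, adjusted p 0.577 in limma). TEAD3 (ENSG00000007866, GRCh37 chromosome 6, 35441374 to 35464856, minus strand) stood at 5.98, 6.06, 5.99 and 6.02 and at 5.98, 6.02, 5.89 and 6.02, a log2 fold change of -0.03 (95% interval -0.14 to 0.07, adjusted p 0.761 in limma). The samples of both groups were interleaved in each of the 3.

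The TEAD family summed to 357 ± 23.1 TPM in the controls, from 334 to 389, and to 389 ± 9.34 TPM in the Siglec-XII group, from 380 to 401 (SD, n = 4 each). TEAD1 made up 40.0 ± 1.29% of that sum and 43.0 ± 1.45% in the Siglec-XII group (SD, n = 4 each), with the ranges just overlapping. TEAD4 was next, with 30.9 ± 0.499% and 30.2 ± 1.73%. The share of TEAD3 was lower in every Siglec-XII sample, at 16.0 ± 0.433% (15.4 to 16.3%) against 17.9 ± 0.673% (17.0 to 18.5%), and TEAD2 was the least, at 11.2 ± 0.604% and 10.8 ± 0.760%. These shares were not tested, and a share within a family moves with every other member.

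**Figure D3:**
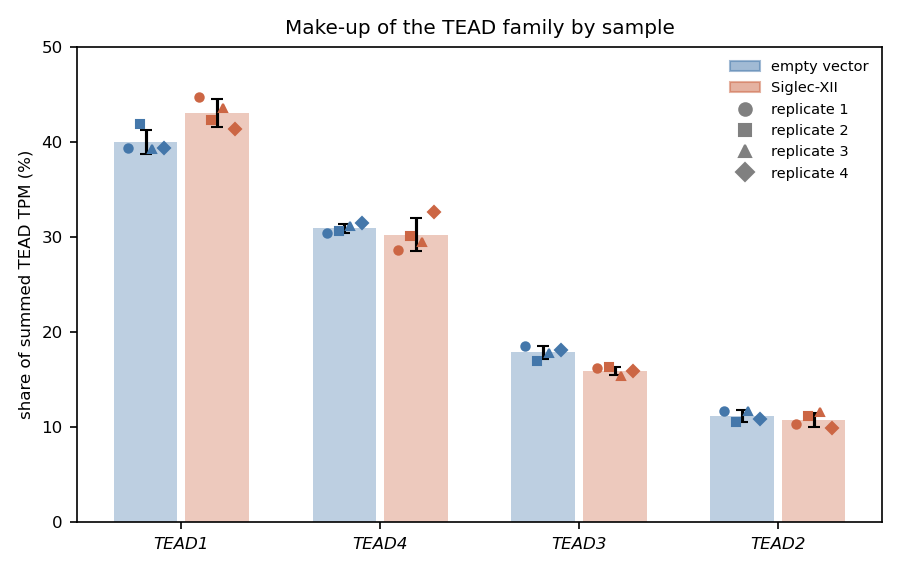
Share of the summed TEAD TPM held by each factor (y axis, percent), with bars for the mean of 4 samples, error bars for the SD and points for the samples, by group. TEAD1 holds the largest share in every sample, and the TEAD3 samples of the Siglec-XII group all lie below those of the empty vector group.

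VGLL1 (ENSG00000102243, GRCh37 chromosome X, 135614374 to 135638966, plus strand) encodes a vestigial-like cofactor that binds the TEAD surface used by YAP and TAZ. Its level was 7.60, 7.51, 7.51 and 7.38 log2(TPM + 1) in the controls and 7.45, 7.40, 7.39 and 7.58 in the Siglec-XII samples. No sample stood apart and the groups overlapped throughout. The mean was 180 ± 11.2 TPM against 175 ± 10.9 TPM (SD, n = 4 each), and the log2 fold change of -0.04 (95% interval -0.18 to 0.09) had an adjusted p of 0.755 in limma. VGLL1 mRNA was above that of each TEAD factor by its mean level.

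CYR61 (ENSG00000142871, GRCh37 chromosome 1, 86046444 to 86050272, plus strand) encodes a secreted matricellular protein and is a standard reporter of YAP and TAZ activity. Its level was 7.29, 7.51, 7.16 and 7.12 log2(TPM + 1) in the controls and 7.63, 7.47, 7.55 and 7.53 in the Siglec-XII samples. Empty vector replicate 2 lay above Siglec-XII replicate 2, and this was the only crossing between the groups. The mean was 154 ± 19.3 TPM against 186 ± 8.50 TPM (SD, n = 4 each), 20.7% more. Its log2 fold change of 0.28 (SE 0.08, 95% interval 0.09 to 0.46, adjusted p 0.156 in limma) was the largest of the 10.

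CTGF (ENSG00000118523, GRCh37 chromosome 6, 132269316 to 132272512, minus strand), the close relative of CYR61 that is used as a reporter in the same way, was close to the 1 TPM needed to be tested. It stood at 1.19, 1.45, 1.26 and 1.40 log2(TPM + 1) in the controls and 1.34, 1.32, 1.37 and 1.41 in the Siglec-XII samples, or 1.28 to 1.73 TPM. The groups overlapped fully, and the log2 fold change of 0.04 (95% interval -0.23 to 0.31, adjusted p 0.905 in limma) turned slightly negative under quantile normalization. CYR61 exceeded CTGF by a ratio of 103 ± 15.5 in TPM in the controls and 118 ± 7.55 in the Siglec-XII group (SD, n = 4 each).

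ANKRD1 (ENSG00000148677, GRCh37 chromosome 10, 92671853 to 92680844, minus strand), which encodes a nuclear ankyrin-repeat protein, is the third reporter gene in common use. It stood at 6.75, 7.03, 6.61 and 6.64 log2(TPM + 1) in the controls and 7.10, 6.78, 6.74 and 6.58 in the Siglec-XII samples. The lowest sample of all was Siglec-XII replicate 4 and the highest Siglec-XII replicate 1, so that the spread within that group exceeded any shift. The log2 fold change of 0.04 (95% interval -0.23 to 0.32, adjusted p 0.893 in limma) was -0.018 under quantile normalization and -0.019 under scaling to equal upper quartiles. Of the 3 target genes the interval of CYR61 alone excluded 0, and whether CYR61 differed from the others in response was not tested.

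One control sample bore on 2 of these genes. Empty vector replicate 2 was the highest of its group in 7 of the 10 genes, as it was in 34.9% of all tested entries, and the median deviation of the 10 genes from the group mean was 0.08 in it, beside 0.04 over all tested entries. Without it the log2 fold change of TEAD1 was 0.30 (SE 0.04, adjusted p 0.0218 in limma) and that of CYR61 0.36 (SE 0.06, adjusted p 0.0382 in limma), both past the threshold, while YAP1 and WWTR1 stayed short of it. The number of calls over all entries was then 159. No reason to leave the sample out was found in the labels.

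**Figure D4:**
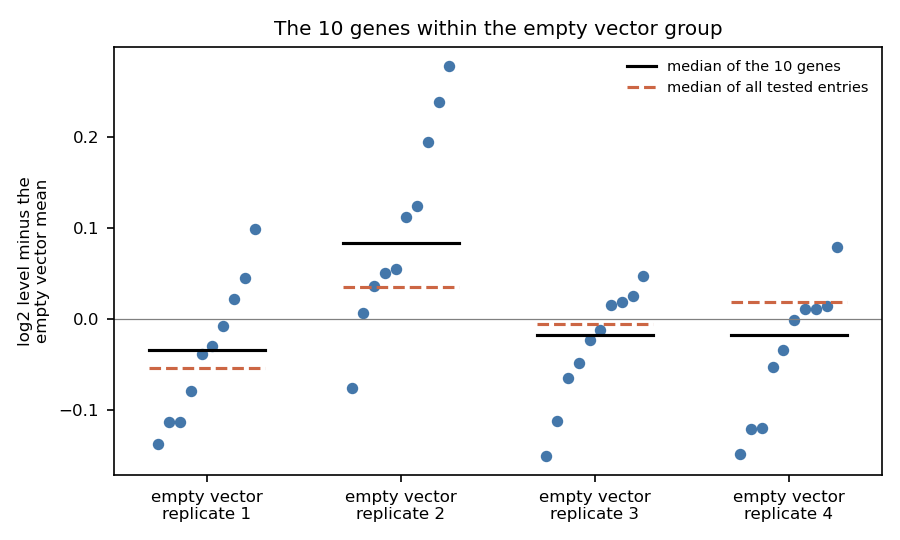
Deviation of each of the 10 genes from the empty vector mean (y axis, log2 units) in the 4 empty vector samples (x axis), with the median of the 10 genes as a solid line and that of all tested entries as a dashed line. Replicate 2 has the highest median of the 4, 0.08 for the 10 genes and 0.04 for all tested entries.

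The genes upstream of YAP and TAZ were read from a list of 24 Hippo kinases, scaffolds and regulators, all of them tested. None passed an adjusted p of 0.05. By sign 23 were higher with Siglec-XII and 1 lower, or 21 and 3 under quantile normalization and with equal upper quartiles. Over all tested entries 68.1% were higher. The median log2 fold change was 0.16 beside 0.07 over all tested entries, or 0.096 and 0.10 under those scalings beside 0.0095 and 0.011. After removal of the length trend 19 were higher and 5 lower, and the median was 0.091 beside -0.00029. Of the 24 genes 9 (37.5%) had an unadjusted p of 0.05 or less, all higher, beside the 13.9% of all tested entries. That number was 5 under either scaling, beside 7.02% and 7.20% of all tested entries, and 3 with the length trend removed, beside 6.24%. RASSF1, a scaffold of the MST kinases, had the smallest p, with 4.74 ± 0.11 log2(TPM + 1) against 5.08 ± 0.07 (SD, n = 4 each), a log2 fold change of 0.34 (SE 0.07, adjusted p 0.0770 in limma). AMOT, an angiomotin that retains YAP at junctions and the most abundant of the list at 160 TPM, stood at 7.22 ± 0.06 against 7.43 ± 0.05, a log2 fold change of 0.21 (adjusted p 0.0896 in limma).

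Next came LATS2, the kinase that phosphorylates YAP and TAZ and is itself a target of theirs, whose log2 fold change was 0.22 (adjusted p 0.156 in limma). In RASSF1, AMOT, LATS2 and the kinase gene TAOK2, the last named after its values were seen, the Siglec-XII samples all lay above the controls, which is 4 of 24 genes beside 9.17% of all tested entries. The abundant AMOTL2 (139 TPM) and WWC1 (109 TPM), a scaffold known as KIBRA, had log2 fold changes of 0.14 and 0.16 with adjusted p of 0.393 and 0.238 in limma. TAOK3 was the only gene of the 24 on the lower side, at -0.03 (adjusted p 0.884 in limma). Without empty vector replicate 2, RASSF1 (log2 fold change 0.39, adjusted p 0.0285 in limma) and FRMD6 (0.52, adjusted p 0.0376) passed the threshold, FRMD6 being named after its values were seen. Over all 15590 tested entries 159 passed in that setting. The sample left out was the highest control in 17 of these 24 genes, beside 34.9% of all tested entries.

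Of 14 other cofactors and partners of TEAD and YAP, 10 were tested, of which 6 were higher and 4 lower, or 5 and 5 under either scaling. Their median log2 fold change was 0.08, or 0.021 under quantile normalization, 0.015 with equal upper quartiles and -0.0059 with the length trend removed. Over all tested entries 68.1% were higher, and the medians were 0.07, 0.0095, 0.011 and -0.00029 in that order. None passed an adjusted p of 0.05 in limma, and 1 (10%), YWHAZ, had an unadjusted p of 0.05 or less on the higher side, where 13.9% of all tested entries did. YWHAZ, a 14-3-3 protein of the family that holds phosphorylated YAP in the cytoplasm, was the most abundant at 1063 TPM, its log2 fold change being 0.13 (adjusted p 0.279 in limma). VGLL4, a vestigial-like protein that competes with YAP for TEAD, stood at 45.0 TPM with a log2 fold change of 0.21 (adjusted p 0.314 in limma), and RUNX1, a partner transcription factor, at 0.25 (adjusted p 0.362). SMAD2, a transducer of TGF-beta signals that binds TAZ, stood at 38.0 TPM with 0.02 (adjusted p 0.877 in limma), which turned to -0.044 under quantile normalization. On the lower side were FOSL1 (-0.13, adjusted p 0.798) and JUN (-0.04, adjusted p 0.858), both AP-1 subunits, and ARID1A (-0.09, adjusted p 0.778), a SWI/SNF subunit, none past the threshold in limma. VGLL2, FAM181A, FAM181B and RUNX2 were too low to be tested.

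Among 28 other genes known as targets of YAP, TAZ and TEAD, 21 were tested, of which 17 were higher and 4 lower, or 15 and 6 under either scaling. Their median log2 fold change was 0.14, or 0.086 and 0.090 under quantile normalization and equal upper quartiles. Over all tested entries 68.1% were higher, and the medians were 0.07, 0.0095 and 0.011 in that order. Of the 21 target genes 1 passed an adjusted p of 0.05, where 0.648% of all tested entries did, and it was lower with Siglec-XII. IGFBP3, which encodes a secreted binding protein of insulin-like growth factors and was the most abundant of the list at 217 TPM, stood at 7.87, 8.16, 7.85 and 7.93 log2(TPM + 1) in the controls and 7.59, 7.54, 7.46 and 7.62 in the Siglec-XII samples. Every Siglec-XII sample lay below every control. IGFBP3 fell from 248 ± 25.2 TPM to 187 ± 9.28 TPM (SD, n = 4 each), a log2 fold change of -0.40 (SE 0.07, adjusted p 0.0466 in limma).

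That call stood close to the threshold, and the adjusted p was between 0.0119 and 0.151 over 17 alternatives, under 0.05 in 6 of them, while the gene was lower in all 17. At an unadjusted p of 0.05 or less there were 5 target genes higher (LATS2, MYOF, AXL, CRIM1 and FOXF2, 23.8% of those tested) beside 13.9% of all tested entries, and 2 lower (IGFBP3 and AREG, 9.52%) beside 2.61%, all but IGFBP3 named after their values were seen. The log2 fold change of GADD45A, a stress-response gene at 147 TPM, was 0.24 (adjusted p 0.317 in limma), and AMOTL2, an inhibitor of YAP that is also its target, was given above. Without empty vector replicate 2, MYOF (0.31, adjusted p 0.0466), AXL (0.54, adjusted p 0.0438) and CRIM1 (0.34, adjusted p 0.0269) also passed in limma, and IGFBP3 stayed at -0.33 (adjusted p 0.0329). In that setting 159 of all 15590 tested entries passed. The sample left out was the highest control in 13 of the 21 tested target genes, beside 34.9% of all tested entries. The 7 targets that did not pass the filter were CCN3, CCN4, CCN5, CCN6, CCDC80, NT5E and RBMS3, so of the 6 genes of the CCN family CYR61 alone was abundant.

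**Figure D5:**
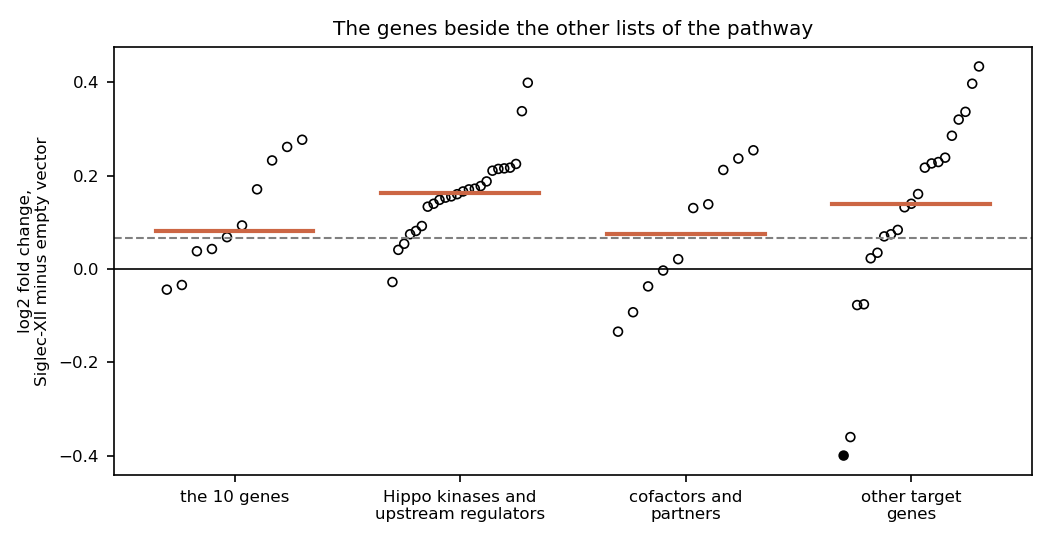
Log2 fold change, Siglec-XII minus empty vector (y axis), of the 10 genes and of the tested genes of 3 further lists of the pathway (x axis), with 1 circle per gene, the median as a colored line and the median of all tested entries as a dashed line. Filled circles passed an adjusted p of 0.05, which in these lists was IGFBP3, below 0.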

How the data were processed

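The authors quantified paired reads with kallisto (0.45.0 per the labels) and, per the study's methods, human build hg19, and deposited 1 table of 63816 entries as log2(TPM + 1). The methods name featureCounts for a count analysis by gene, and how the deposited TPM were summarized by gene is not given in the sources used here. The labels name an rRNA-depleting stranded kit, the methods an mRNA kit. Read numbers per value are unknown, so no count test or counting interval could be given, and low values such as those of CTGF carry more error.

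The 15590 entries at or above 1 TPM in 4 or more samples were fitted on the deposited log2 values in limma 3.58.1 under R 4.3.3 (lmFit, eBayes with trend), with Benjamini-Hochberg adjustment over all of them, and the procedure was tested on simulated data. Fold changes are on the log2(TPM + 1) scale and understate changes of low genes. Positions come from the GENCODE annotation lifted to GRCh37, promoters from RefSeq.

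The members and lists were chosen with earlier results of these data known, and 1 gene of the cofactor list is not reported here. Named from each pathway list were genes with an adjusted p under 0.05, otherwise the 3 smallest p in each direction, and the 3 highest mean TPM. Alternatives changed the pseudocount, filter, normalization, model and samples. Removal of the trend with transcript length was chosen after seeing the data.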

Additional observations from a re-analysis of the deposited data

Results flagged for a closer look

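In each group of 4 samples, the highest and lowest values of the 10 genes were compared with their nearest neighbor by Dixon's criterion, which chance alone passes in about 1 in 20 groups. Of 20 groups, 2 passed. YAP1 in Siglec-XII replicate 4 was 9.11 log2(TPM + 1), with 8.97 as the nearest value, a gap of 0.841 of the range of the group. TEAD1 in Siglec-XII replicate 1 was 7.44 log2(TPM + 1), with 7.39 as the nearest value and a gap of 0.879 of the range, in the group of 4 whose SD was 3.16 TPM. The cause was not tested in either gene.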

How the results depend on the processing

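YAP1, WWTR1, TEAD1 and CYR61 kept an unadjusted p of 0.05 or less and the higher side in all 17 alternatives run, and TEAD3, lower, joined them when the trend with transcript length was removed. Of all tested entries, 6.24% (length trend removed) to 17.4% (mean of at least 5 TPM) did so on the higher side. The alternatives refit the same samples and are not independent of each other. Log2 fold changes of YAP1, WWTR1, TEAD1 and CYR61 ranged from 0.11 to 0.19, 0.17 to 0.30, 0.12 to 0.30 and 0.22 to 0.36. The number of the 10 genes past an adjusted p of 0.05 was 0 to 2 when 1 sample was left out in turn, as was that of the Hippo list, with the 2 seen without empty vector replicate 2. The number whose groups did not overlap was 1, YAP1, with equal upper quartiles, 2 (YAP1, higher, and TEAD3, lower) under quantile normalization and with the length trend removed, 2 (YAP1 and WWTR1) without mitochondrial and small RNAs, and 3 to 4 with 1 sample left out. Over all tested entries that share was taken in the main fit only, 9.17% higher and 1.68% lower. These counts have no share of their own beside them, and groups lie apart more easily with fewer samples. Calls over all entries were 51 with no filter, 34 without mitochondrial and small RNAs, 54 with no trend, 66 with the length trend removed and 49 to 159 with 1 sample left out. The share of calls on the higher side was 52.5%, against 32.6% under quantile normalization, 26.1% with the replicate block, 29.3% with equal upper quartiles, 28.8% with the length trend removed, 42.6% with no trend, 41.2% with no filter and 64.7% without mitochondrial and small RNAs. The target list had 0 calls with a pseudocount of 0.1, no filter, the replicate block or no trend, and 0 to 4 with 1 sample left out. The SIGLEC12 difference was 10.57 to 10.62 with 1 sample left out, where the exact permutation p cannot go below 0.0571. CTGF turned to -0.0024 under quantile normalization, -0.023 with the length trend removed and -0.0081 to 0.079 with 1 sample left out, and was not tested at a mean of at least 5 TPM. ANKRD1 turned to -0.019 with equal upper quartiles, -0.018 under quantile normalization, -0.011 with the length trend removed and -0.058 to 0.13 with 1 sample left out. Leaving out 1 sample also turned TAOK3 (-0.079 to 0.018), ARID1A (-0.18 to 0.026), FOSL1 (-0.30 to 0.050), JUN (-0.084 to 0.027) and SMAD2 (-0.0049 to 0.047), and SMAD2 was -0.044 under quantile normalization, -0.039 with equal upper quartiles and -0.11 with the length trend removed. The cause was not tested. Samples that share a replicate number did not deviate together (r from -0.074 to 0.059 over the tested entries, 4 of 8 samples closest to their own number), so the numbers were not taken as pairs. With the replicate block 69 entries passed, none of the 10 genes did, and IGFBP3 had an adjusted p of 0.0922. Depth is unknown, so the precision of low genes could not be set.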

Other observations

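The TEAD core was also counted in the promoters of the other lists. Of 22 promoters of the other target genes 10 (45.5%) held it, as did 7 of 30 (23.3%) of the Hippo list and 3 of 25 (12%) of the cofactor list, beside the 14% of all promoters. Genes with several promoters are counted more than once and AMOTL2, LATS2 and PTPN14 stand in both the first and second lists. No test was made of these shares.

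The difference between groups varied with transcript length, taken from the transcript that each entry names, over the protein-coding entries tested. Among 4782 genes with transcripts under 2000 bases the median log2 fold change was 0.05, among 3757 of 2000 to 4000 bases 0.07 and among 3381 longer ones 0.10. TEAD1, whose entry names a transcript of 9417 bases, went from 0.23 to 0.12 when that trend was removed, YAP1 from 0.17 to 0.11, WWTR1 from 0.26 to 0.17 and CYR61 from 0.28 to 0.22.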
